A study of Mus musculus with 60 samples.

Results

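Kidney held 996 circular RNAs (circRNAs) in the authors' deposited tables, of 2799 different circRNAs listed over 5 organs. Every entry of the kidney table was taken, with no selection on its values. The kidneys came from 3 Ftsj1-deficient mice (genotype label Ftsj1_DF) and 3 wild-type mice (label WT), which were male, 4 months old and given no special treatment. The labels name brothers: 2 mice of each genotype belonged to a group of 4 brothers and 1 of each to a pair of brothers. The sources used here do not say how the deficiency was made or in which cells. Each of the 6 kidney libraries was made from whole tissue and sequenced in 2 runs (the second was added after a low read yield), so that kidney makes up 12 of the 60 samples of the series. The p-values come from a normal approximation with 3 mice a genotype. In whole kidney, fewer cells of a type and less RNA per cell cannot be told apart.

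Circular RNAs form when the spliceosome joins the end of an exon back to the start of the same or an earlier exon. The closed ring has no free ends, which makes it resistant to exonucleases such as RNase R and long-lived in tissue, and a circRNA is recognised by reads across the back-splice junction. Neighbouring exons of a gene can be joined in several ways, so a gene can give several circles that share an end. Ftsj1 encodes an X-linked enzyme that adds a methyl group to the ribose of nucleotides in the anticodon loop of some tRNAs. In mammals it acts together with the partner proteins THADA and WDR6, and loss of human FTSJ1 is a cause of intellectual disability. The kidney filters blood in its glomeruli and recovers water, salts and nutrients in the tubules, whose cells make up most of its mass.

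A circRNA is identified here by its chromosome and the first and last base of its genomic span on the mouse build GRCm39. No strand is given, so start and end are genomic positions, and overlapping circles may lie on opposite strands. The annotation at hand is for GRCm38, so no host gene, exon or intron is named, and the labelled tissue was not checked against kidney marker genes. Abundance is the mean normalized count, a signal averaged over the kidney libraries of both genotypes, called the mean below. The genotypes are compared by the log2 fold change and the standard error (SE) that the authors deposited, and 95% intervals are the estimate ± 1.96 times the SE. The deposited table names neither the groups compared nor the numerator, and the comparison is read here as between the genotypes. Signs therefore stand as deposited, and neither genotype is named as the higher one for any circRNA. The tables of the other organs are alike in this, and signs are set side by side as if the numerator were the same. Read totals and values per mouse were not analysed here, and the depth behind each value is thus unknown.

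Most kidney circRNAs were rare and a few were abundant. In the authors' deposited table the means ran from 0.693 to 145.9 with a median of 3.33, so the highest was 43.8 times the median. Only 165 circRNAs (16.6%) reached a mean of 10, 11 reached 50 and 2 reached 100. The 10 most abundant held 12.9% of the summed mean, the 20 most abundant 19.3% and the 100 most abundant 46.2%. No single circRNA dominated the organ: the leader held 2.16%.

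Genomic span, introns included, showed next to no relation to abundance. The spans ran from 143 bases to 161067 bases, with a median of 6060 bases and quartiles of 2000.5 and 14791.5 bases. Across the 996 circRNAs, which share the same libraries, Spearman's rho of mean and span was 0.0075. Circles spanning under 1000 bases numbered 145 (14.6%) and held 14.2% of the summed mean. The 44 circles spanning 50000 bases or more were 4.42% of the table and held 3.32% of the summed mean.

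**Figure D1:**
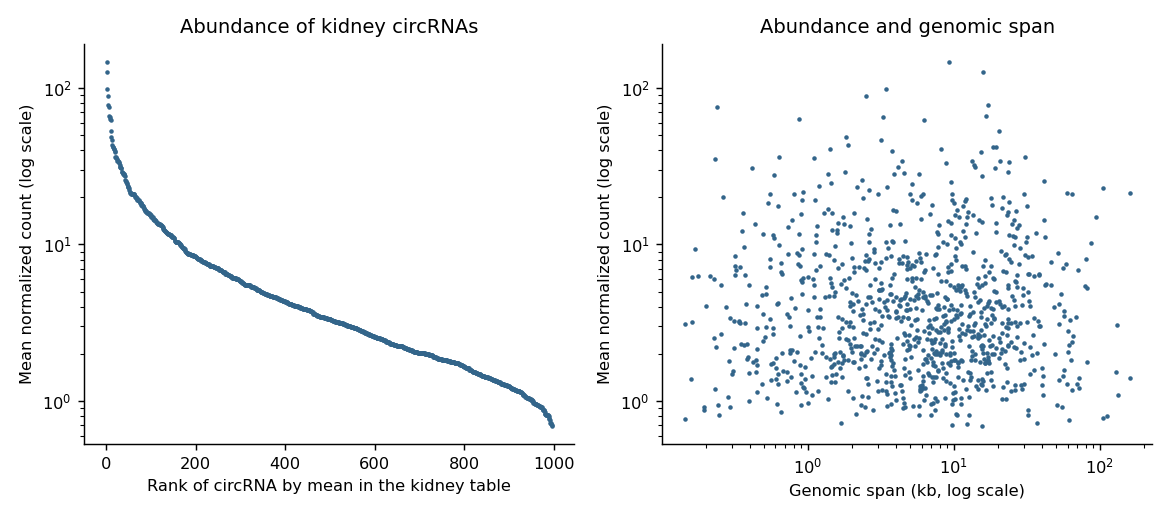
Left, mean normalized count of each of the 996 kidney circRNAs (log scale) against its rank. Right, the same mean against genomic span in kilobases (both axes log scale), 1 point per circRNA. The means fall from 145.9 to 0.693, and short and long spans occur at all levels.

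The leading circles showed how little span says about level. The most abundant circRNA, on chromosome 5 from 89528172 to 89537469, spanned 9298 bases and had a mean of 145.9 per the authors' deposited table. The next, on chromosome 1 from 87291826 to 87307730, spanned 15905 bases at a mean of 127.1 by the authors' deposited table. The sixth, on chromosome 5 from 118731398 to 118731635, spanned only 238 bases and had a mean of 75.1 per the authors' deposited table. At the other extreme, the longest circle of the kidney, on chromosome 13 from 45948985 to 46110051, was among the more abundant ones, with a mean of 21.4 by the authors' deposited table.

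Kidney circRNAs came from every autosome and from both sex chromosomes. Chromosome 2 gave the most, 88, followed by chromosome 5 with 70. Chromosome X, which carries Ftsj1, gave 7, with means of 0.914 to 6.01 per the authors' deposited table. The Y chromosome and the mitochondrial genome gave 1 each. The mitochondrial entry, from 13774 to 13916, spanned 143 bases with a mean of 3.08 by the authors' deposited table. It tied with an entry on chromosome 15 from 75920071 to 75920213 as the shortest span of the table. The mitochondrial entry is counted as listed, and whether it formed by back-splicing was not tested.

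Many kidney circles closed at a base that another circle also used. Of the 996 circRNAs, 275 (27.6%) had the same start or the same end, to the base, as another kidney circRNA. Shared ends were used by 169 circRNAs, shared starts by 136, and 30 circRNAs shared their start with one partner and their end with another. In all, 65 starts and 80 ends were used more than once. The most used was an end on chromosome 2 at 139899419, which closed 5 circles. Among the 344 circRNAs with a mean of at least 5, 58 (16.9%) shared a start or end with one another.

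Joined by overlap, the 996 circRNAs formed 818 loci. A single circRNA stood in 694 of them, and the other 124 loci held 302 circRNAs: 91 held 2, 23 held 3, 5 held 4 and 3 held 5. The remaining loci held 7 and 9. Circles of the shared loci spanned a median of 13556 bases, against 4312.5 bases for circles alone in their locus. A longer span has more room for an overlap, so this follows in part from the way loci were joined. In the shared loci 1 circle usually dominated. The most abundant circle held a median of 69.4% of its locus' summed mean, at least 50% in 114 of the 124 loci and at least 90% in 14. Joined only where an overlap covered 50% of both spans, circles formed 47 loci with at least 2.

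The locus of the kidney leader was among those 14. Its 3 circles lay on chromosome 5 between 89528172 and 89561236. The leader held 97.7% of the summed mean. A circle with the same start that ended at 89561236 had a mean of 2.20, and a circle from 89535037 to 89561236 had 1.27, per the authors' deposited table. The end on chromosome 2 at 139899419 was less one-sided. The shortest of its 5 circles, starting at 139884014, held 71.2% of the locus, with a mean of 38.9 by the authors' deposited table. The 4 longer ones, which started between 139819527 and 139850619, had means of 1.40 to 8.08 per the authors' deposited table.

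The densest locus was divided among several circles. It lay on chromosome 8 between 78037360 and 78147376, covered 110017 bases and held 9 kidney circRNAs with a summed mean of 86.6. Its leader, from 78071269 to 78091789, held 39.4% with a mean of 34.2 by the authors' deposited table. The same interval was also split between 2 shorter circles. One ran from the leader's start to 78078301 with a mean of 17.8, and the other from 78078243 to the leader's end with a mean of 15.3, per the authors' deposited table. These 2 overlapped by 59 bases. The first and last bases of the leader's span were thus each used by a shorter circle of lower mean.

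The second densest locus, on chromosome 4 between 150515980 and 150619402, was built as a chain. Its first circle ended at 150523925, and 2 others started at 150523800, an overlap of 126 bases. One of these ended at 150584508, and 2 further circles started at 150584460, an overlap of 49 bases. The circle from 150584460 to 150594495 led the locus with 47.3% of its summed mean, at a mean of 18.4 by the authors' deposited table. The other 6 had means of 2.06 to 6.42 per the authors' deposited table.

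**Figure D2:**
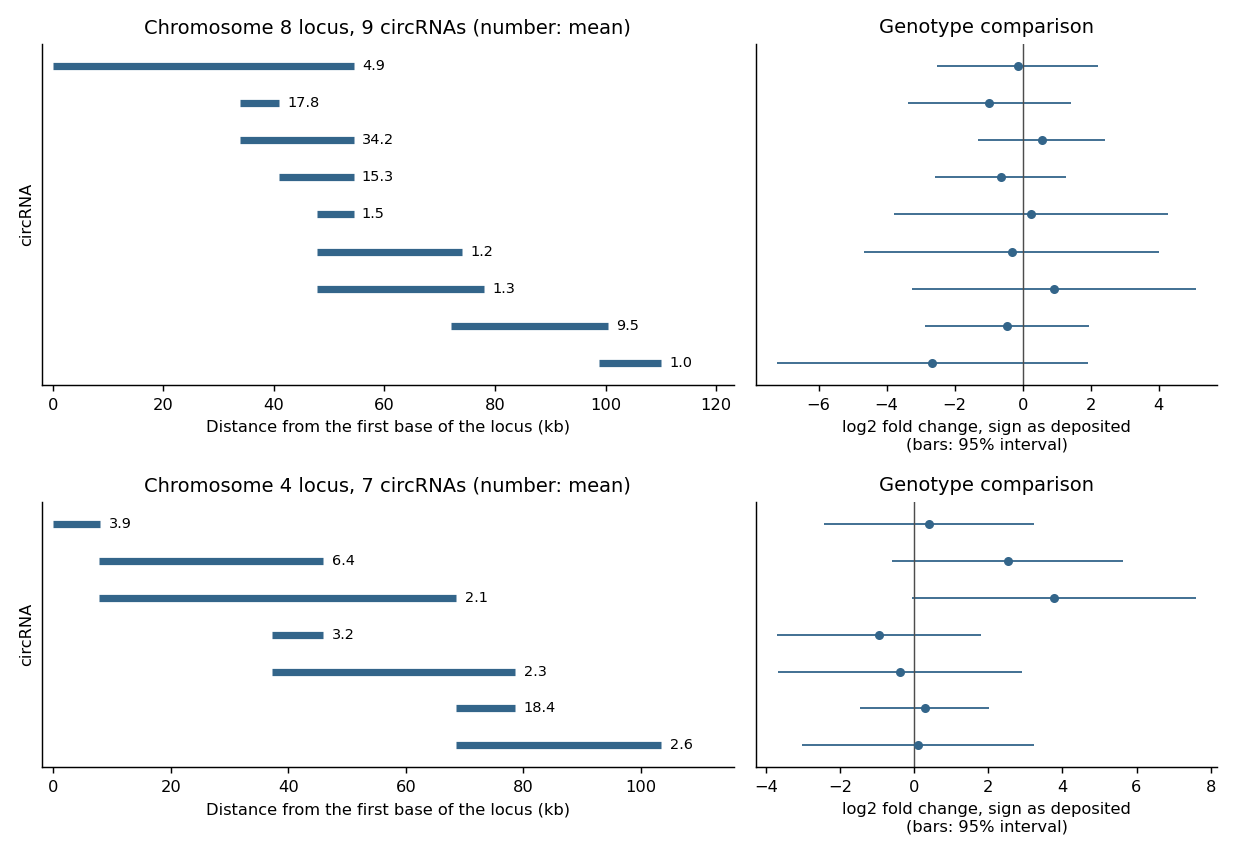
Each bar is a kidney circRNA of the chromosome 8 locus (top, 9 circRNAs) or the chromosome 4 locus (bottom, 7 circRNAs), drawn by distance in kilobases from the first base of the locus, with its mean beside it. The right panels give the log2 fold change of the same circRNAs with 95% intervals, and each of the 16 intervals includes 0.

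A locus on chromosome 1 between 20417435 and 20451818 held 5 circles, none of them listed in another organ. Its circle from 20417435 to 20434455, at a mean of 4.24, had a log2 fold change of 4.88 (SE 1.86, unadjusted p = 0.00881, adjusted p = 0.999 in the authors' DESeq2 test). It is 1 of 24 circRNAs, described with the genotype comparison, whose fold change follows their mean, so this size is no estimate. The circle from 20444080 to 20447724 was the most abundant of the locus and had -0.62 (SE 1.47) by the authors' deposited table. The other 3 circles, which all ended at 20451818, had means of 1.55 to 2.95 and log2 fold changes between -0.13 and 1.07 by the authors' deposited table.

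Short overlaps such as those of the chromosome 4 chain recurred in the kidney. Of 238 overlapping pairs of circles, 179 shared an end, 12 were nested with no shared end, and 47 were staggered, each reaching past the other on 1 side. In 23 of the staggered pairs the shared stretch was under 500 bases, from 49 to 451 with a median of 103, and the next shortest overlap was 583 bases.

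In 4 pairs the circles agreed at one end and differed by only a few bases at the other. On chromosome 13, circles ending at 46110051 were accompanied by circles from the same starts ending 3 bases earlier. From the start at 45948985 the means were 21.4 and 1.41, and from the start at 46005804 they were 22.9 and 0.782, by the authors' deposited table. The later end was thus 15.2 and 29.2 times as abundant. On chromosome 4, circles ending at 130446662 started at 130445465 (mean 23.5) or 3 bases later (mean 2.53) per the authors' deposited table. On chromosome 6, circles ending at 134043428 started at 134039027 (mean 7.61) or 4 bases later (mean 1.16) by the authors' deposited table. In each of the 4 pairs 1 circle was at least 6.54 times as abundant as its neighbour.

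The genotype comparison called no kidney circRNA. In the authors' DESeq2 test none of the 989 circRNAs with a p-value had an adjusted p below 0.05 (0% called), and 18 (1.82%) had an unadjusted p below 0.05. With no difference anywhere, a share of 0.05 of the p-values would be expected below 0.05, so the 18 are fewer than that. The Benjamini-Hochberg adjusted p was the same, 0.999, for all 989. For a single circRNA to pass the adjustment alone, it would have needed a Wald statistic of 4.05, whereas the largest found was 2.79. At the smallest SE of the table, 0.713, that corresponds to a log2 fold change of 2.89, and at the median SE, 1.67, to 6.78. The size needed is smaller where several circRNAs have small p-values together.

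The abundant circles gave the most precise estimates, and these lay near 0. Among the 20 most abundant, with means of 38.9 and more, 16 had a log2 fold change within 0.5 of 0, 8 were positive and the median was -0.03. All 20 intervals included 0. The leader on chromosome 5 stood at -0.44 (SE 0.71) per the authors' deposited table. The fourth, on chromosome 5 from 135150360 to 135152871, had a mean of 88.7 and a log2 fold change of -0.62 (SE 0.76) by the authors' deposited table. The short circle of 238 bases on chromosome 5 had -0.02 (SE 0.80) per the authors' deposited table.

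One abundant circle is named here because it had the highest estimate of the 20. It lay on chromosome 9 from 96474003 to 96493552, had a mean of 42.1 and a log2 fold change of 2.28 (SE 1.31, unadjusted p = 0.0819, adjusted p = 0.999 in the authors' DESeq2 test), with an interval from -0.29 to 4.85. A circle with the same end, starting at 96484766, had a mean of 33.0 and a log2 fold change of 1.06 (SE 1.48) by the authors' deposited table. Both estimates were positive, and both come from the same libraries. An SE over 1 was found for 3 of the 20 most abundant circles, this one included.

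**Figure D3:**
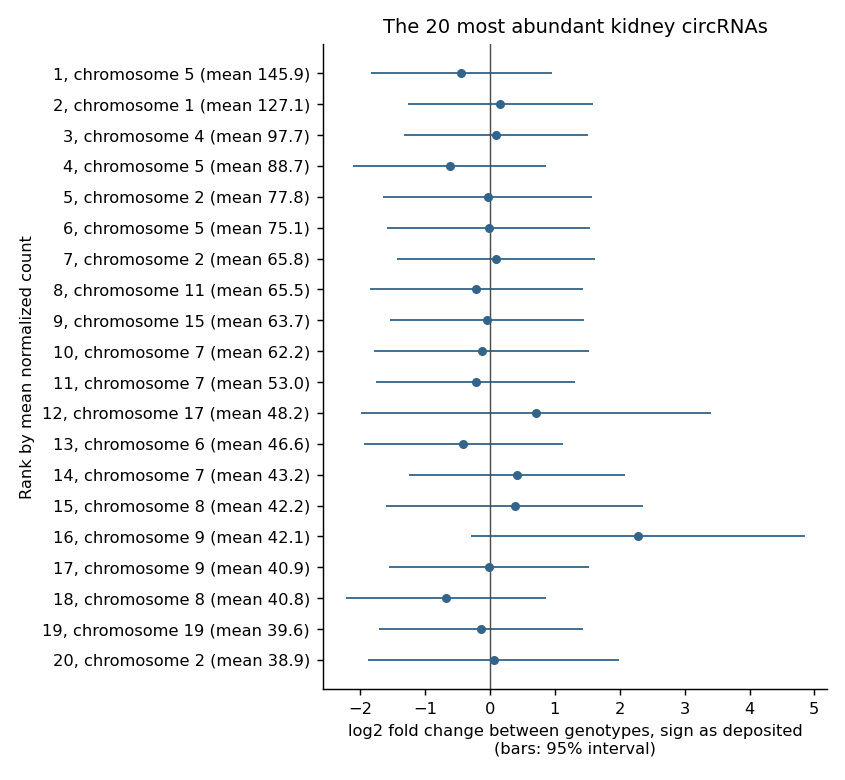
Log2 fold change between the genotypes (x axis, sign as deposited) of the 20 most abundant kidney circRNAs, ordered by mean, with 95% intervals as bars. All 20 intervals include 0, and the circle ranked 16, on chromosome 9, has the highest estimate, 2.28.

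How precisely each circle was estimated went with its mean. Across the 996 circRNAs Spearman's rho of mean and SE was -0.93, and 93 circRNAs had an SE below 1. For 46 circRNAs (4.62%) the whole interval lay within 4-fold either way, that is within 2 log2 units. These 46 had a median mean of 28.4. An interval within these limits needs an estimate near 0, so their estimates, from -0.44 to 0.28, follow from the choice. The mean alone did not decide it: 162 circRNAs had a mean at least as high as the lowest of the 46, 10.2. For the other circRNAs the table leaves differences of 4-fold or more within the interval on at least 1 side.

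All 18 circRNAs at an unadjusted p below 0.05 had positive log2 fold changes. They were mostly rare, with means of 2.07 to 13.8 and a median of 2.99, and their log2 fold changes ran from 2.88 to 4.88 with SEs of 1.16 to 2.01. Their spans were 1612 to 22852 bases, with 0 under 1000 bases, a class that held 14.6% of all kidney circRNAs. On the negative side no circRNA was below 0.05 (0% of those tested). The smallest unadjusted p there, 0.113, belonged to a circle on chromosome 11 from 50192585 to 50199756, with -3.42 (SE 2.16) per the authors' deposited table. The most abundant of the 5 negative circles with the smallest p lay on chromosome 15 from 58840688 to 58844409, with a mean of 8.47 and -2.13 (SE 1.38, unadjusted p = 0.122) per the authors' deposited table. Of the 18, 12 were alone in their locus, as were 694 of all 996, and 3 had a mean of at least 5. With a Student reference of 4 degrees of freedom in place of the normal one, 1 stayed below 0.05. It was the chromosome 4 circle from 140895024 to 140907843, which is 1 of the 24 whose fold change follows their mean.

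For 14 of the 18, the size of the fold change followed the mean. Among kidney circRNAs, 24 positive ones had a log2 fold change that exceeded log2 of their mean by 2.69 to 2.81, and the next positive circRNA stood at 1.23. A fitted fold change takes this form, called the plateau below, when nearly all counts lie in 1 group, and its size is then no estimate of how far the groups differ. Counts per genotype, which would show this directly, were not analysed here. The plateau circRNAs had means of 1.34 to 4.24. On the negative side 8 circRNAs exceeded log2 of their mean by more than 2.5, with means of 0.714 to 1.70, and there was no gap below them: the next stood at 2.29.

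**Figure D4:**
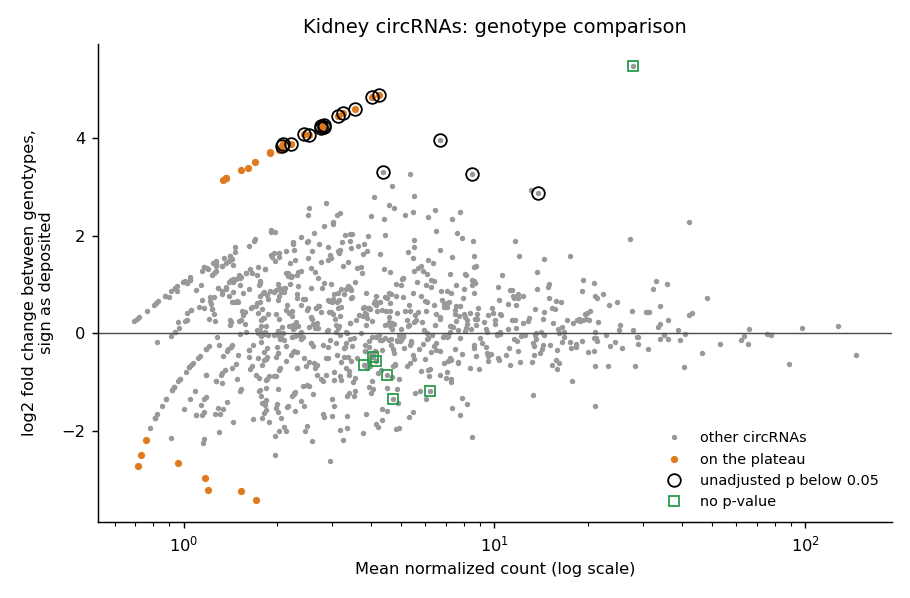
Log2 fold change between the genotypes (y axis, sign as deposited) against the mean normalized count (x axis, log scale) of the 996 kidney circRNAs, with plateau circRNAs of either sign in orange. The 24 positive circRNAs of the plateau form a line separate from the rest at means up to 4.24, and 14 of the 18 circled points with an unadjusted p below 0.05 lie on it.

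The other 4 of the 18 lay off the plateau. They were circles on chromosome 19 from 4842426 to 4844037, chromosome 16 from 58305126 to 58327977, chromosome 11 from 70765572 to 70775794 and chromosome 4 from 144881139 to 144883352. Their log2 fold changes were 2.88 (SE 1.16), 3.96 (SE 1.63), 3.26 (SE 1.46) and 3.30 (SE 1.65), in that order, per the authors' deposited table. Their means were 13.8, 6.68, 8.45 and 4.37, likewise by the authors' deposited table.

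Circles that shared an end had the same sign about as often as any pair of kidney circles. Of the 179 pairs with a shared end, 85 (47.5%) had log2 fold changes of 1 sign, where 51.2% of all pairs of kidney circRNAs did. At a median SE of 1.67 over the kidney circRNAs many signs are uncertain, and a circle can belong to several pairs. The count therefore cannot show whether partners change together. The median gap within such pairs was 0.95 log2 units. The members of a pair come from the same libraries, so the SE of a gap between them was not known and no gap was tested. The 4 largest gaps involved circles at an unadjusted p below 0.05.

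Chromosome 19 gave the largest gap between circles off the plateau. The circle from 4842426 to 4844037 had 2.88 and an unadjusted p of 0.0131, and a longer circle with the same end, starting at 4837389, had -2.61 (SE 1.66, unadjusted p = 0.116), per the authors' deposited table. The 2 circles were 5.48 log2 units apart and carried 82.4% and 17.6% of the locus. The one had the smallest p of the positive circles off the plateau, and the other the second smallest p of the negative circles.

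Other shared loci held contrasts of this kind, some of them around plateau circles, whose sizes are no estimate. On chromosome 4 the circle from 140895024 to 140907843 had 4.83 (on the plateau), and the one from the same start to 140898251 had -0.11 (SE 1.61), by the authors' deposited table. On chromosome 2 the circle from 91635369 to 91655697 had 4.05 (SE 1.96, on the plateau) per the authors' deposited table. The circles that shared its start or its end had -0.77 (SE 1.14) and -2.02 (SE 2.18) by the authors' deposited table. On chromosome 12, where none was on the plateau, circles from 24928190 to 24974293 and to 24984621 had 2.49 (SE 1.35) and -2.05 (SE 1.82), and another, to 24932793, had 1.19 (SE 1.16), per the authors' deposited table.

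Chromosome 16 was the opposite case. The circles from 58305126 to 58327977 and to 58314224 had 3.96 (SE 1.63) and 4.25 (SE 2.01) by the authors' deposited table. Both were among the 18, both were listed in kidney alone, and the shorter one lay on the plateau. In the chromosome 4 chain, the 2 circles starting at 150523800 had 2.52 (SE 1.59) and 3.78 (SE 1.95, unadjusted p = 0.053) per the authors' deposited table, and the circle with 3.78 lay on the plateau. The other 5 circles of that chain lay between -0.95 and 0.40. In the chromosome 8 locus, 6 of 9 estimates were negative, the leader had 0.56 (SE 0.95), and the 2 shorter circles that divide its interval had -0.98 (SE 1.22) and -0.64 (SE 0.98), by the authors' deposited table.

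Positive signs outnumbered negative ones over the whole table, though not among the 20 most abundant circRNAs (8 of 20). Of the 996 estimates 576 (57.8%) were positive, and the median log2 fold change was 0.20. From the lowest to the highest of 4 groups of 249 circRNAs by mean, the share of positive signs was 57.0%, 60.6%, 53.8% and 59.8%, with medians of 0.26, 0.29, 0.18 and 0.15. The share was 55.2% for spans under 1000 bases and 63.6% for spans of 50000 bases or more. The estimates all rest on 1 set of 6 libraries, and whether the shift exceeds the spread between mice was not tested. It is small beside the median SE of 1.67.

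The kidney table listed 7 circRNAs without a p-value. The deposited columns give no reason, and counts per library, which could show an outlying library, were not analysed here. Of these, 6 had means of 3.79 to 6.22 and log2 fold changes from -1.35 to -0.49. The seventh had the highest log2 fold change of the table. It lay on chromosome 12 from 52562862 to 52566750, with a mean of 28.0 and a log2 fold change of 5.48 (SE 3.40, interval from -1.18 to 12.1), per the authors' deposited table. It was not on the plateau, and its SE was high for its mean. In brain, the only other organ that listed it, it had -0.66 (SE 2.22) by the authors' deposited table.

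The kidney leaders differed in how far they reached beyond the kidney. Of the 20 most abundant, 12 were listed in all 4 other organs. The leader on chromosome 5 was listed elsewhere only in liver, where it ranked 632 of 900 per the authors' deposited table. The circle ranked 19 in kidney, on chromosome 19 from 28331606 to 28335352, with a mean of 39.6 by the authors' deposited table, was listed in no other organ. A pair of circles from a common start nearby, 28508273, were also listed in kidney alone, with means of 25.2 and 19.1 per the authors' deposited table. The authors removed low values organ by organ, and a circRNA left out of a table may still be present in that organ.

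The more organs listed a kidney circRNA, the more abundant and the shorter it was. From kidney alone (277 circRNAs) to all 4 other organs (133), the median mean was 2.18, 2.39, 3.52, 4.77 and 11.7, and the median span was 8042, 6534, 5555, 4244 and 3470 bases. The 133 held 34.0% of the summed mean. A filter on low values acts on rare circRNAs first, and its part in the first of these trends was not tested. Circles listed in kidney alone included 9 of the 18 at an unadjusted p below 0.05, or 3.25% of the 277. The 133 included 0, where the share over all tested was 1.82%. The 18 were mostly rare (median mean 2.99), as were the circles listed in kidney alone, so the contrast was not separated from abundance. Of the 277 listed in kidney alone, 14 had a mean of at least 10. Next to the circles on chromosome 19, these included a circle on chromosome 6 from 23107139 to 23122736, with a mean of 27.3 and a log2 fold change of 1.93 (SE 1.09, unadjusted p = 0.0767), going by the authors' deposited table.

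Brain shared the most circRNAs with kidney, 542, which is 54.4% of the kidney table and 29.2% of the brain table. Liver shared 458 (46.0% of the kidney table and 50.9% of the liver table) and heart 39.4% of the kidney table, which is 59.0% of the heart table. Spleen, with the shortest table, shared 212, or 21.3% of the kidney table and 68.8% of its own. Among the shared circRNAs the means of kidney and the other organ had a Spearman's rho of 0.53 with brain, 0.52 with heart, 0.50 with spleen and 0.39 with liver, as a description. A kidney circRNA missing from a table sometimes had a relative there: of the 538 that liver did not list, 68 shared a start or an end with a liver circRNA.

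The 18 had few counterparts elsewhere. Of the 18, 9 were listed in no other organ, where 27.8% of all 996 kidney circRNAs were. Rare kidney circRNAs were listed in fewer organs and the 18 were mostly rare, so this was not separated from abundance. Together the 18 had 17 entries in the other 4 tables, of which 10 were positive. Of these entries 3 had an unadjusted p below 0.05: the chromosome 11 circle from 70765572 in brain and spleen, both positive, and the chromosome 4 circle from 140895024 in liver, with a negative sign. The shares of positive signs and of low p over all entries of those organs are not given here, so neither count is read as a result. The chromosome 19 circle from 4842426, which was more abundant in rank in brain (34 of 1856) than in kidney (113 of 996), had -0.97 (SE 1.65) in brain by the authors' deposited table.

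**Figure D5:**
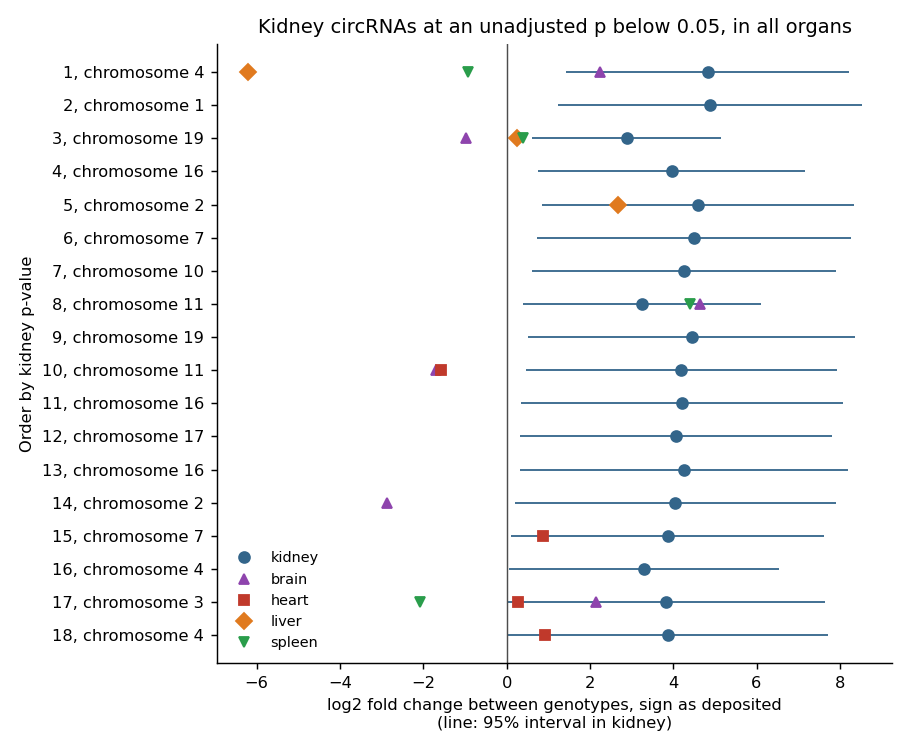
Log2 fold change (x axis, sign as deposited) of the 18 kidney circRNAs with an unadjusted p below 0.05, ordered by kidney p, in kidney (circles, with the 95% interval as a line) and in each other organ that listed them. The kidney estimates were chosen for their p, and 10 of the 17 estimates from other organs are positive. The share of positive signs over all entries of those organs is not given, so this count is not read as a result.

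The genotype difference itself was compared between kidney and each other organ, for 1568 pairs of estimates of the same circRNA. None passed a two-sided normal test of the difference with Benjamini-Hochberg adjustment (0% called), and 51 (3.25%) had an unadjusted p below 0.05. The same mice gave all organs, so the estimates of a pair need not be independent. The comparison also takes the numerator to be the same genotype in each organ, which the deposited tables do not state. Of the 51, 34 were against liver, where 445 pairs were tested, and in all 34 the kidney estimate was above the liver one. In 32 of these 34 the circRNA lay on the plateau in liver, with a negative liver estimate, so the size of the difference is no estimate there. Among pairs off the plateau in both organs, 11 of 1467 had an unadjusted p below 0.05, of which 8 were against brain, 2 against liver, 1 against heart and 0 against spleen. The smallest adjusted p was 0.0526, for the chromosome 4 circle from 140895024, which lay on the plateau of both organs with opposite signs. Off the plateau, the pair with the smallest p was a circle on chromosome 16 from 94204173 to 94212982. It had 2.46 (SE 1.86) in kidney and -4.53 (SE 1.67) in brain in the authors' deposited tables, a difference of 6.99 (SE 2.5, adjusted p = 0.674). Heart gave 2 of 389 pairs at an unadjusted p below 0.05.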

How the data were processed

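CircRNAs were measured in whole kidney of 6 mice. Per the labels' protocols, RNA was depleted of ribosomal RNA, polyadenylated, digested with RNase R and fragmented for library construction. GRCm39, DESeq2 and BWA (0.7.17-r1188) are listed, without roles, per the submitters' processing notes. How circles were called and counted, which model was fitted and how the repeat runs entered it were not given in the sources used here. If the runs entered the fit as separate samples, the errors would be too small. Low expression was removed per tissue by the authors, per the table's name.

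Per the file headers, the deposited columns are a mean signal, a log2 fold change with its SE, a Wald score, and p-values with adjusted p-values. In all 5 tables the score equalled the fold change over its SE, and the p-values equalled the two-sided normal tail, within rounding. The kidney adjusted p-values were those of Benjamini-Hochberg over 989 tests. The SD of the kidney score was 0.684, narrower than the standard normal behind the p-values. Whether the errors were too small or too large was not tested.

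Spans, shared ends, loci (overlap of at least 1 base), intervals and differences between organs were computed with Python 3.11.15, pandas 2.3.3 and scipy 1.17.1. The test between organs was run on simulated data with independent normal errors and large planted differences. That setting leaves out the shared mice and the plateau, so it cannot show how the test behaves with them. The plateau was set at an excess over 2.5 log2 units. No counts per library were used, so no refit was made and no replicate was left out. Named circRNAs were those with the highest means, the smallest p, no p-value, extreme spans, the densest loci and the smallest p between organs. Those with the widest gaps between partners, the neighbouring ends and the circles of kidney alone were added after their values were seen. The members, lists and tests were chosen with earlier results of these data known. The host gene and cell type lists fixed for this work were not tested, because no annotation of the files' build was used.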

Additional observations from a re-analysis of the deposited data

How the results depend on the processing

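No kidney circRNA passed when the p-values were adjusted over the 342 with a mean of at least 5 (smallest adjusted p = 0.994), over all 5 tables (0.787) or with a Student reference of 4 degrees of freedom (0.999), each computed from the authors' DESeq2 statistics. The 18 positive circRNAs at an unadjusted p below 0.05 became 3 with a mean of at least 5 and 4 without the plateau. With the Student reference 1 was left, and it lay on the plateau. The negative count stayed 0 in each. The median log2 fold change of 0.20 was 0.093 at a mean of at least 10, and between 0.18 and 0.21 under the other 3 settings. Loci with at least 2 circRNAs numbered 116 when joined by a shared end and 47 when joined by an overlap of 50% of both spans. Shared starts or ends were found for 58 of the 344 circRNAs with a mean of at least 5 (16.9%), fewer partners being then at hand. With ends within 5 bases the number stayed 275. The test between organs called none without the plateau (11 of 1467 at an unadjusted p below 0.05) and none at means of at least 5 (25 of 594). Host genes were not assigned, so that alternative was not run. No paired analysis was possible because values per library were not analysed here. The brother groups, which hold both genotypes, could therefore not be used as blocks. Depth per library is unknown, and the SE limits what could be called.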
